A study of Ovis aries with 20 samples.

Results

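The heat shock genes described here are 10 chaperones, co-chaperones and their regulator: HSPA1A, HSPA6, HSPA2 and HSPA8 of the HSP70 family, DNAJB1, HSPH1, BAG3, HSPB1, HSPD1 and the transcription factor HSF1. They were taken by symbol from gene count tables of sheep trachea, 10 of 24478 genes, and all 10 passed the filter on low counts that left 20097 genes for testing. The genes were chosen by their depth-scaled counts in these libraries, with inducible chaperones high in CF at birth and HSPA2 low, so every CF against WT value at birth below is a description with no test.

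RNA sequencing covered 5 ages of sheep (Ovis aries), with days counted up to birth at day 147. Days 65, 80, 100 and 120 thus all precede birth. Every age had 2 libraries from CF animals, the sheep model of cystic fibrosis, the disease caused by loss of the epithelial anion channel CFTR, and 2 from WT animals labelled healthy, 20 libraries in all. The labels do not name the CFTR allele of the CF animals. The tissue, frozen trachea, is labelled epithelial.

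Heat shock proteins bind unfolded or partly folded proteins and help them fold, refold or be degraded. HSP70 proteins work in cycles of ATP use that J-domain partners start and nucleotide exchange factors reset. Stress frees HSF1 from chaperones, and HSF1 then switches on the inducible members within minutes to hours, whereas the constitutive members are made in unstressed cells as well. CFTR is itself a client of HSP70 and HSP90 chaperones during its folding in the endoplasmic reticulum.

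The epithelial marker EPCAM was present in every library, from 58.3 to 305 CPM (counts scaled to a common library depth, relative to TMM library sizes), with the ciliated cell regulator FOXJ1 from 112 to 842 CPM. Cartilage and connective tissue were also present in every library, as shown by COL2A1 from 59.8 to 3307 CPM and COL1A1 from 599 to 18477 CPM. Total counts ran from 42372433 to 87651829 per library. Of the 20 libraries, 4 carried markers of other tissues far above the rest: CF day 65 replicate 2 (liver, ALB at 4683 CPM), CF day 80 replicate 1 (skeletal muscle, ACTA1 at 5766 CPM), WT day 65 replicate 2 (thymus, PRSS16 at 125 CPM) and WT day 80 replicate 2 (thyroid, TG at 106018 CPM). Both CF day 147 replicates carry the same sample identifier, as do both WT day 100 replicates, so each pair may come from a single animal. An identifier also recurs on CF day 100 replicate 2 and WT day 65 replicate 2, although their titles differ in genotype and age. Identifiers differ between replicates in the other 8 groups, and in 4 of these (CF days 65 and 80, WT days 80 and 120) they share a stem and differ by a suffix. The labels do not say what the identifier or its suffix stands for, so p-values measure the spread between these libraries, which may be technical. In whole tissue, a change in the share of a cell type and a change in RNA per cell cannot be told apart.

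Per kilobase of exon, the median level over the 20 libraries was highest for HSPA1A (663 CPM per kilobase), then HSPA8 (389), HSPB1 (170), HSPD1 (114), HSPH1 (85.9), DNAJB1 (32.1), BAG3 (30.1), HSF1 (23.7), HSPA6 (6.23) and HSPA2 (3.51). The ranges of neighbours in this order overlapped in every case. HSPA1A ran from 106 to 2957 CPM per kilobase, whereas HSF1 ran only from 16.8 to 28.7 CPM per kilobase.

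**Figure D1:**
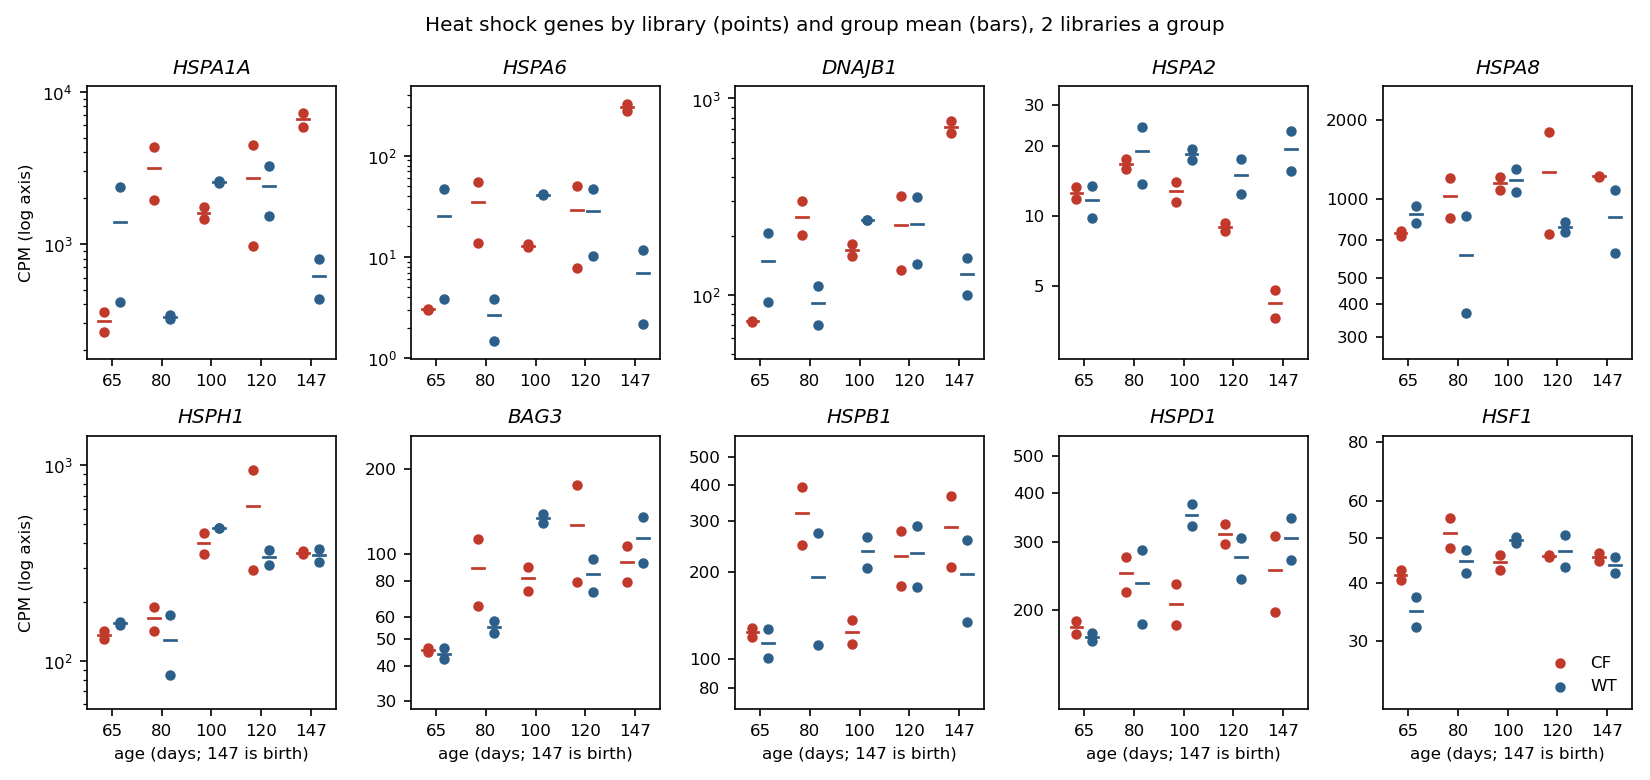
CPM of each of the 10 genes (log axis) in every library by age in days, with 2 CF libraries left of 2 WT libraries at each age and a bar at each group's mean. HSPA1A reaches 5892 and 7275 CPM in CF at birth, against 436 and 790 CPM in WT, and HSPA2 is lowest in CF at birth.

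HSPA6, HSPA1A and DNAJB1 varied most of the 10 between groups, with an SD of the group means of 2.02, 1.44 and 0.92 on the log2 scale. These group means include birth, for which the genes were chosen, so the rank of these genes is partly set by that choice. HSPA1A encodes the main inducible HSP70 of the cytosol (chromosome 20, 26560156 to 26573734, minus strand, in the authors' coordinates, their build being not given in the sources used here). In CF it measured 261 and 358 CPM at day 65, 1932 and 4350 at day 80, 1738 and 1446 at day 100, 966 and 4477 at day 120, and 5892 and 7275 at birth. In WT it measured 412 and 2350 CPM at day 65, 342 and 318 at day 80, 2587 and 2494 at day 100, 1526 and 3256 at day 120, and 436 and 790 at birth. CF was thus the lower genotype at days 65 and 100, the higher at day 80 and at birth, and the groups overlapped at day 120.

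At birth the log2 fold change of HSPA1A, CF over WT, was 3.43 ± 0.85 (SE, n = 2 libraries each). At day 80 it was 3.25 ± 0.84 (n = 2 each), and this did not pass edgeR's quasi-likelihood test, adjusted over all genes (adjusted p = 0.278). Without CF day 80 replicate 2 it was 2.53. At day 65 it was -2.16 ± 0.80 (edgeR adjusted p = 1). The day 65 value rests on WT day 65 replicate 2, the library with thymus markers: without it the log2 fold change was -0.42.

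HSPA1A shares 326 of its 2460 exon bases with the neighbouring gene model LOC494436, on the same strand and with no symbol in the tables used here. The counts of HSPA1A were between 0.928 and 1.12 times those of LOC494436 in every library, so reads of these models may be split between them and each value is uncertain. HSPA1L, a related gene on the opposite strand whose span partly overlaps that of HSPA1A, stayed between 3.32 and 12.1 CPM in all libraries.

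HSPA6, an HSP70 that is nearly silent in unstressed human cells, had the widest range (chromosome 1, 110875925 to 110880526, plus strand). In CF it measured 2.99 and 3.06 CPM at day 65, 13.8 and 55.6 at day 80, 12.6 and 13.3 at day 100, 7.78 and 49.9 at day 120, and 276 and 326 at birth. In WT it measured 3.87 and 46.9 CPM at day 65, 3.86 and 1.46 at day 80, 40.8 and 41.6 at day 100, 10.1 and 46.6 at day 120, and 2.16 and 11.7 at birth. No library before birth reached the CF birth level, and the highest of them was CF day 80 replicate 2.

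The log2 fold change of HSPA6 at birth was 5.45 ± 1.37 (SE, n = 2 each), and it was 4.69 without WT day 147 replicate 1 and 7.14 without WT day 147 replicate 2. At day 80 it was 3.71 ± 1.27 (edgeR adjusted p = 0.336), or 2.36 without CF day 80 replicate 2, and at day 100 it was -1.67 ± 1.16 (edgeR adjusted p = 0.552). At day 65 it was -3.07 ± 1.23 (SE; edgeR adjusted p = 1), but -0.36 without WT day 65 replicate 2.

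DNAJB1 is the J-domain partner that delivers clients to HSP70 and speeds its ATP use (chromosome 5, 9280207 to 9310500, plus strand). In CF it measured 73.6 and 73.1 CPM at day 65, 202 and 299 at day 80, 182 and 157 at day 100, 134 and 317 at day 120, and 665 and 772 at birth. In WT it measured 91.6 and 206 CPM at day 65, 111 and 70.5 at day 80, 240.0 and 241 at day 100, 143 and 315 at day 120, and 100.4 and 154 at birth. It was ordered between the genotypes as HSPA1A and HSPA6 were at days 65, 80 and 100 and at birth, over a smaller range. The log2 fold change was 2.50 ± 0.51 at birth, 1.46 ± 0.49 at day 80 (edgeR adjusted p = 0.332) and -1.02 ± 0.49 at day 65 (edgeR adjusted p = 1), or -0.32 without WT day 65 replicate 2.

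**Figure D2:**
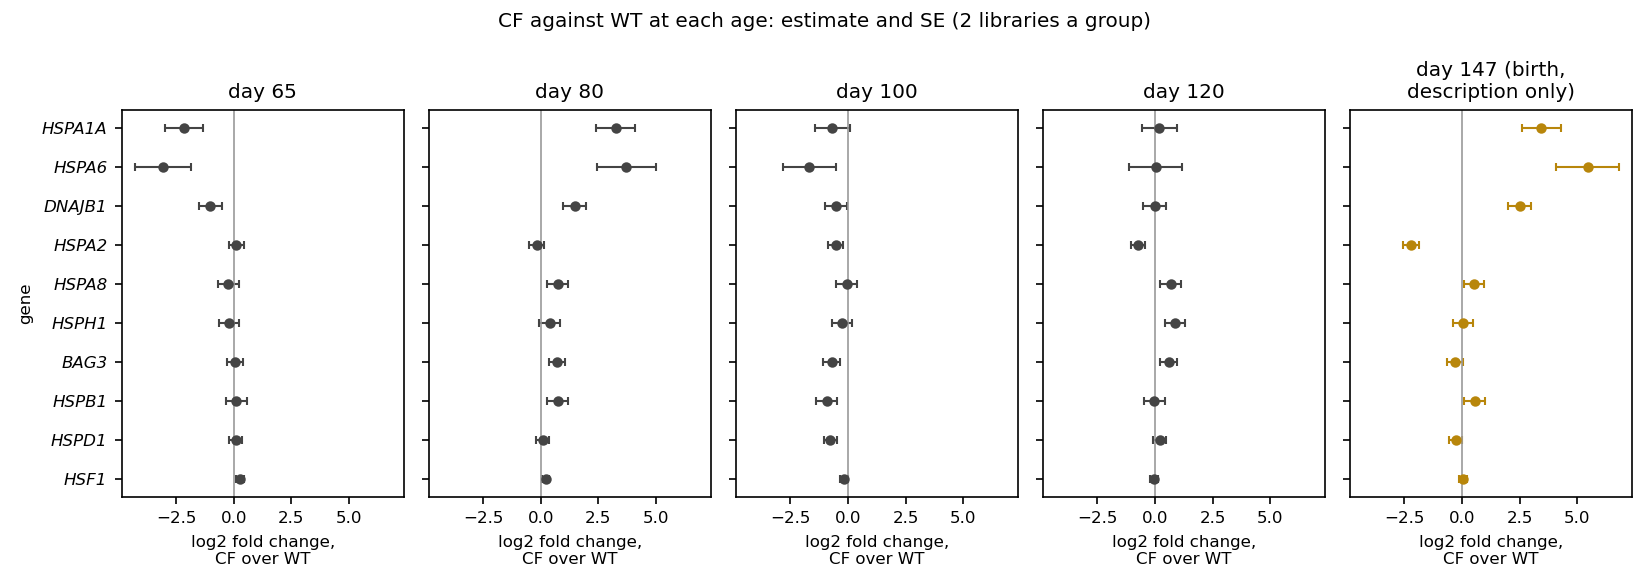
Fitted log2 fold change, CF over WT, of each gene at each age in days, with bars of 1 SE (2 libraries per group). HSPA1A, HSPA6 and DNAJB1 lie below 0 at day 65, above 0 at day 80, below 0 at day 100 and highest at birth, where HSPA2 is lowest at -2.21.

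HSPA2 is the HSP70 needed for sperm formation in mice (chromosome 7, 73550328 to 73554215, plus strand). In CF it measured 11.8 and 13.4 CPM at day 65, 17.5 and 15.9 at day 80, 14.1 and 11.5 at day 100, 9.32 and 8.64 at day 120, and 3.62 and 4.80 at birth. In WT it measured 9.81 and 13.5 CPM at day 65, 24.2 and 13.8 at day 80, 17.4 and 19.4 at day 100, 12.4 and 17.5 at day 120, and 23.2 and 15.7 at birth. The CF libraries lay below the WT libraries at days 100 and 120 and at birth, and the genotypes overlapped at days 65 and 80.

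The log2 fold change of HSPA2, CF over WT, was 0.11 ± 0.32 (SE) at day 65 and -0.18 ± 0.32 at day 80. It was -0.53 ± 0.32 at day 100, -0.74 ± 0.32 at day 120 and -2.21 ± 0.34 at birth. None of the 4 ages before birth passed edgeR's test, with an adjusted p of 1 at day 120 and an unadjusted p of 0.0408. Over the mean of days 65 to 120 it was -0.33 ± 0.16 (edgeR adjusted p = 0.535). HSPA2 counts were low, from 206 to 1701 per library, and its within-group SD was 0.30 on the log2 scale, with 21.0% of the genes tested below it.

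HSPA8, the constitutive HSP70 of the cytosol, which also strips clathrin from vesicles, was abundant throughout (chromosome 15, 33161011 to 33165487, minus strand). It ran from 725 to 1790 CPM in CF and from 370 to 1300 CPM in WT. At birth it measured 1225 and 1212 CPM in CF, against 1079 and 626 CPM in WT. The genotypes did not overlap at birth, and CF day 120 replicate 2 and WT day 100 replicate 2 exceeded both CF birth libraries. Its log2 fold change at birth was 0.51 ± 0.45 (SE), and over days 65 to 120 it was 0.29 ± 0.23 (edgeR adjusted p = 0.822).

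Per exon length, HSPA1A stood at 4.52 and 5.64 times the level of HSPA8 in CF at birth, against 0.379 and 1.18 times in WT. Before birth this ratio within a library ran from 0.338 in CF day 65 replicate 1 to 4.80 in CF day 80 replicate 2. HSPA6 reached 0.0554 and 0.0530 of the HSPA1A level in CF at birth, against 0.00587 and 0.0175 in WT, and at most 0.0236 before birth. These ratios do not depend on the scaling of libraries.

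**Figure D3:**
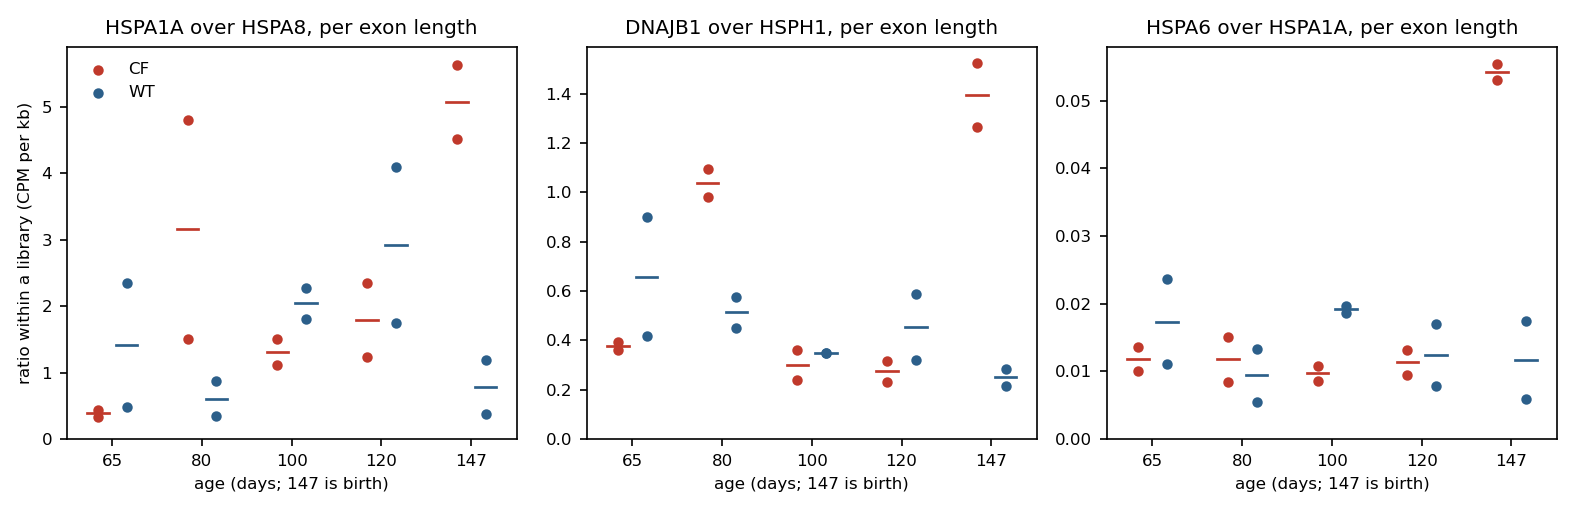
Ratios of levels per exon length within each library (linear axes from 0, points for libraries, bars for group means) by age in days, CF left of WT: HSPA1A over HSPA8, DNAJB1 over HSPH1 and HSPA6 over HSPA1A. In CF at birth HSPA1A over HSPA8 is 4.52 and 5.64, DNAJB1 over HSPH1 is 1.26 and 1.52, and HSPA6 over HSPA1A is 0.0554 and 0.0530.

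HSPH1, the HSP110 that exchanges the nucleotide of HSP70, did not follow HSPA1A at birth (chromosome 10, 30011966 to 30035540, plus strand). At birth it measured 364 and 351 CPM in CF, against 321 and 373 CPM in WT, a log2 fold change of 0.04 ± 0.44. Before birth it measured, in CF, 141 and 129 CPM at day 65, 143 and 189 at day 80, 351 and 453 at day 100, and 293 and 944 at day 120. In WT it measured 152 and 158 CPM at day 65, 170 and 84.9 at day 80, 479 and 480 at day 100, and 308 and 370 at day 120. Both genotypes were higher from day 100 on than at days 65 and 80, and CF day 120 replicate 2 stood above all other libraries. The ratio of DNAJB1 to HSPH1 per exon length was 1.26 and 1.52 in CF at birth, against 0.217 and 0.285 in WT, and 0.233 to 1.10 before birth.

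BAG3, a co-chaperone that exchanges the nucleotide of HSP70 and links it to small heat shock proteins and to autophagy, likewise overlapped between the genotypes at birth (chromosome 22, 38671258 to 38694700, plus strand). It measured 79.8 and 107 CPM in CF at birth, against 92.7 and 136 CPM in WT. At day 65 it measured 46.6 and 45.0 CPM in CF, against 46.3 and 42.2 CPM in WT. At day 120 it measured 79.4 and 175 CPM in CF, against 73.5 and 96.0 CPM in WT. All 4 libraries of day 120 lay above all 4 of day 65.

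HSPB1, the small heat shock protein also called HSP27, holds unfolded proteins without using ATP (chromosome 24, 34233436 to 34235095, plus strand). It measured 208 and 366 CPM in CF at birth, against 135 and 258 CPM in WT, and the groups overlapped. At day 100 it measured 113 and 137 CPM in CF, against 265 and 207 CPM in WT, a log2 fold change of -0.92 ± 0.46 (edgeR adjusted p = 0.443). At day 80 CF was on average higher, 393 and 248 CPM in CF against 274 and 112 CPM in WT, and the sign turned, to -0.14, without the 4 libraries holding other tissue.

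HSPD1, the chaperonin HSP60 of the mitochondrial matrix, measured 197 and 311 CPM in CF at birth, against 269 and 345 CPM in WT (chromosome 2, 198722456 to 198730981, minus strand). At day 100 it measured 182 and 233 CPM in CF, against 375 and 330 CPM in WT, with a log2 fold change of -0.77 ± 0.29. The unadjusted p was 0.0189 and edgeR's adjusted p was 0.272.

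HSF1, the factor that drives the inducible genes and is regulated mainly through its protein, was the steadiest of the 10 (chromosome 9, 13512605 to 13530933, minus strand). It ran from 40.6 to 55.0 CPM in CF and from 32.2 to 50.6 CPM in WT. At birth it measured 44.6 and 46.4 CPM in CF, against 42.0 and 45.5 CPM in WT, a log2 fold change of 0.06 ± 0.17. Its within-group SD was 0.10 on the log2 scale, and 0.731% of genes tested had a smaller one.

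**Figure D4:**
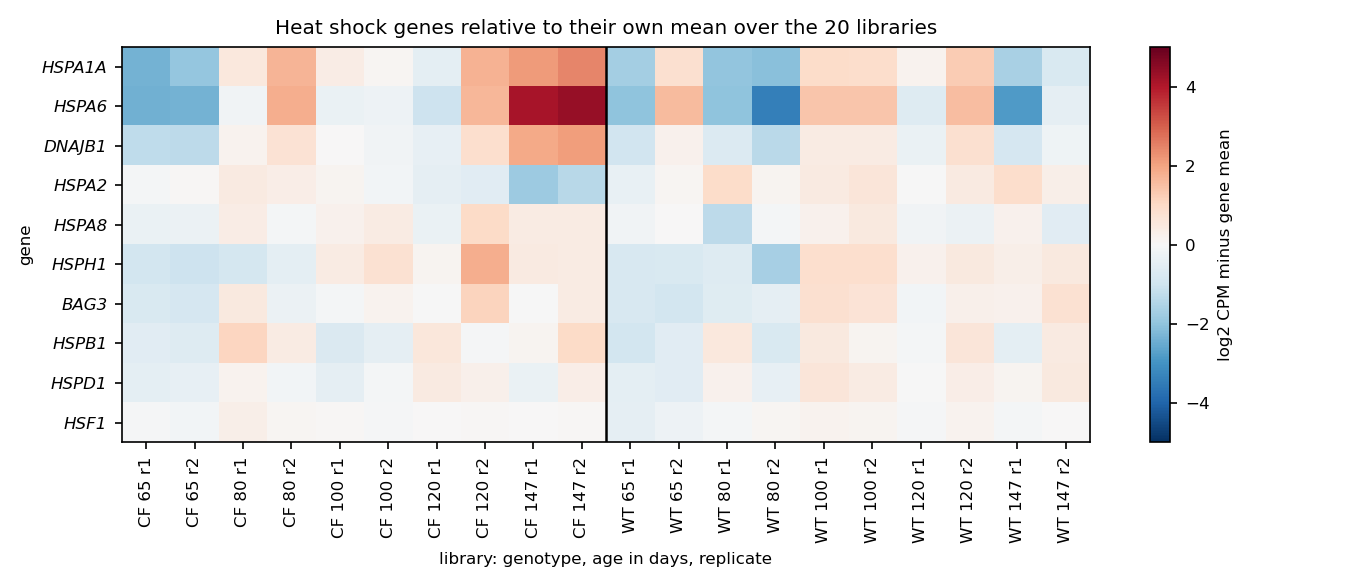
Log2 CPM of each gene in each library less that gene's average over the 20 libraries, with CF libraries left of WT libraries and ages in order within each. HSPA1A, HSPA6 and DNAJB1 are highest in both CF birth libraries, HSPH1 and BAG3 in CF day 120 replicate 2, and HSF1 varies least.

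Replicates of HSPA6 and HSPA1A differed more than those of most genes. The within-group SD on the log2 scale was 1.35 for HSPA6, 0.86 for HSPA1A and 0.52 for DNAJB1, against a median of 0.56 over all genes tested. In the other 8 groups it was 1.51 for HSPA6 and 0.96 for HSPA1A, and within the pairs of a shared identifier it was 0.12 and 0.15. Over all genes these medians were 0.59 in the other 8 groups and 0.28 in the pairs of a shared identifier, and the CF birth libraries are such a pair.

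For days 65 to 120, 0 of the 10 passed edgeR's quasi-likelihood test at an adjusted p of 0.05 for CF against WT. The genes were chosen with earlier results of these data known, so these ages cannot be taken as independent of the choice. For the mean of the ages, 0.448% of all genes passed edgeR's test, and of the 10 genes 0 had an unadjusted p under 0.05 (9.94% of all genes) and DESeq2 called 0 (3.38%, its shares being of all genes it gave an adjusted p). At day 65 0.00995% of all genes passed, 2 of the 10 had an unadjusted p under 0.05 (3.39%) and DESeq2 called 0 (0.746%). At day 100 1.46% of all genes passed, 1 of the 10 had an unadjusted p under 0.05 (12.3%) and DESeq2 called 0 (6.02%). All 10 had a negative log2 fold change at day 100, with a median of -0.60 against 0.12 over all genes. This was not particular to the 10: 21 of 22 other HSF1 targets and all 14 chaperonin and prefoldin genes were negative too. The summed fibroblast markers at day 100 ran from 34192 to 35697 CPM in CF and from 4452 to 6271 CPM in WT. Their part in these values was not tested. At day 120 0% of all genes passed, 1 of the 10 had an unadjusted p under 0.05 (1.39%) and DESeq2 called 0 (0.0846%). At day 80 0% of all genes passed edgeR's test and 3 of the 10 had an unadjusted p under 0.05 (9.57%). There DESeq2 called HSPA1A (adjusted p = 0.00215) and HSPA6 (adjusted p = 0.0226), and 3.52% of all genes. Over all 29 alternatives the adjusted p at day 80 ran from 0.00215 to 0.936 for HSPA1A and from 0.0226 to 1 for HSPA6, and DESeq2 was the only one to call either.

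By values alone, HSPA1A, HSPA6 and DNAJB1 differed by over 2-fold with no overlap between the genotypes at 3 ages. They were lower in CF at day 65, where by the same rule 4.55% of all genes were lower and 3.88% higher. They were higher in CF at day 80, where 4.84% of all genes were higher and 4.63% lower. HSPA6 alone of the 10 was lower in CF at day 100, where 6.06% of all genes were lower and 19.2% higher. None was apart at day 120 (2.68% higher and 2.99% lower). At birth those 3 genes were higher in CF (6.21% of all genes) and HSPA2 was lower (6.24%). The birth counts follow from the choice of the genes and nothing is read from them.

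An F test of whether the CF minus WT difference was the same at days 65, 80, 100 and 120 gave an unadjusted p of 0.00352 for HSPA1A, 0.0123 for HSPA6 and 0.0194 for DNAJB1. In edgeR none passed after adjustment over all genes, with an adjusted p of 0.379 for HSPA1A, and 0% of all genes passed. At an unadjusted p under 0.05 these 3 of the 10 stood beside 6.91% of all genes. DESeq2 called HSPA1A and HSPA6, with a lowest adjusted p of 0.00317, and 2.96% of all genes. The libraries with markers of other tissues are all of days 65 and 80, which enter this test. Without WT day 65 replicate 2 the log2 fold change of HSPA1A at day 65 was -0.42, against -2.16 with it.

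With CF and WT averaged, a comparison added after seeing the data, HSPH1, BAG3 and HSPD1 rose between day 65 and day 120. The log2 fold change, day 120 over day 65, was 1.66 ± 0.32 for HSPH1 (edgeR adjusted p = 0.00842), 1.21 ± 0.25 for BAG3 (0.0127) and 0.74 ± 0.20 for HSPD1 (0.0413). These were 3 of 10 members, all higher, where 7.81% of all genes passed and 4.04% passed as higher. The 10 were chosen with the counts of these ages known. Shares of all genes beside them, here and within a genotype, are therefore a description and no test of the 10 as a set. At an unadjusted p under 0.05 there were 7 of the 10, against 24.6% of all genes, and DESeq2 called 7 of the 10 and 16.7% of all genes. For all 3 genes each of the 4 libraries of day 120 lay above each of the 4 of day 65. The same held for HSPB1 and HSF1, which edgeR did not call. The share of all genes that met this rule was not counted.

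HSPA1A had a log2 fold change of 1.96 ± 0.56 over the same ages and missed the threshold (edgeR adjusted p = 0.0517), as did DNAJB1 at 1.12 ± 0.35 (0.0657) and HSPB1 at 0.95 ± 0.33 (0.0948). LOC494436, the gene model that shares bases with HSPA1A, gave 1.98 ± 0.55 and passed, with an edgeR adjusted p of 0.0463. HSPA6 measured 1.71 ± 0.82, HSPA8 0.30 ± 0.32, HSF1 0.28 ± 0.12 and HSPA2 -0.06 ± 0.23, and none of these passed. The median over the 10 genes was 1.04, against -0.02 over all genes tested, and 9 of 10 were positive.

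Leaving out the 4 libraries holding other tissue left 1 library per genotype at day 65. The log2 fold change was then 1.64 for HSPH1, 1.16 for BAG3 and 0.75 for HSPD1, against 1.66, 1.21 and 0.74 with all libraries. For HSPA1A it was 2.96, against 1.96. In that smaller fit HSPH1, BAG3 and HSPD1 no longer passed in edgeR, and HSPA1A did. HSPH1 lost its call without CF day 65 replicate 2 (0.0517), and BAG3 lost it without any 1 of the 4 day 65 libraries (0.0516 to 0.0658). HSPH1 passed in 27 of 29 other settings, BAG3 in 24 and HSPD1 in 11.

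Within a genotype, 0 of 10 passed edgeR's test between day 65 and day 120 in either. In CF, where 0.498% of all genes passed, 6 of the 10 had an unadjusted p under 0.05 (10.6% of all genes) and DESeq2 called 4, HSPA1A, DNAJB1, HSPH1 and BAG3 (4.48%). At an unadjusted p under 0.05, 5.08% of all genes were higher at day 120 in CF. In WT, where 1.46% of all genes passed, 5 of the 10 had an unadjusted p under 0.05 (17.8%) and DESeq2 called HSF1 (9.13%), with 9.22% of all genes higher at an unadjusted p under 0.05. HSPH1 in CF came nearest in edgeR, at 2.19 ± 0.46 (adjusted p = 0.0581), against 1.13 ± 0.44 in WT (adjusted p = 0.213). The difference of these changes, CF minus WT, was 1.07 ± 0.62 for HSPH1 and -0.01 without CF day 120 replicate 2. In edgeR 0 of 10 differences passed (0% of all genes), 0 had an unadjusted p under 0.05 (1.70%) and DESeq2 called 0 (0.122%).

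HSP90AA1, the inducible HSP90 of the cytosol, measured 2198 and 2225 CPM in CF at birth, against 1959.8 and 2448 CPM in WT. DNAJA1, another J-domain partner, measured 291 and 336 CPM in CF, against 334 and 563 CPM in WT. HSPA5, the HSP70 of the endoplasmic reticulum, measured 372 and 406 CPM in CF, against 398 and 512 CPM in WT. The genotypes overlapped at birth for all 3 of these genes.

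By the rule of over 2-fold with no overlap, 6.21% of all genes were higher and 6.24% lower in CF at birth. Counts of 0 or 1 in the lists of 22 and 12 genes below are near these shares. Of 22 other HSF1 target genes, 0 were apart and higher in CF at birth by this rule. IER5, a feedback regulator of HSF1, was apart and lower, at 13.9 and 16.7 CPM in CF against 26.1 and 93.0 CPM in WT. Of 22 cytosolic HSP70 partners, 0 were higher and DNAJB5 was lower, at 5.50 and 7.75 CPM in CF against 11.5 and 19.4 CPM in WT. Of 12 genes of the HSP90 system, 0 were higher and FKBP5, an HSP90 co-chaperone that glucocorticoids induce, was lower, at 44.8 and 44.6 CPM in CF against 91.4 and 110 CPM in WT. HSF5, of the 4 other heat shock factors, was higher, at 21.7 and 17.8 CPM in CF against 8.36 and 9.86 CPM in WT. All 14 genes of the cytosolic chaperonin and prefoldin had a negative log2 fold change at birth, with a median of -0.53 against -0.06 over all genes, and 0 were apart. Their mean log2 CPM less each gene's own average overlapped, from -0.25 to 0.62 in WT and from -0.52 to -0.07 in CF.

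As 1 set, 99 other chaperone genes had a median log2 fold change, CF over WT, of -0.06 over days 65 to 120, against 0.01 over all genes. In edgeR 0 of the 99 passed, 5 had an unadjusted p under 0.05, where 9.94% of all genes did, and DESeq2 called 1. At day 100 19 of the 99 had a positive log2 fold change, with a median of -0.40 against 0.12 over all genes, and 1 passed in edgeR, as did 1.46% of all genes. That gene, SERPINH1, the collagen chaperone HSP47, was higher in CF at day 100, at 518 and 626 CPM against 285 and 253 CPM in WT (log2 fold change 1.09 ± 0.25, edgeR adjusted p = 0.0486). It passed in 5 of 29 other settings, with an adjusted p from 5.75e-05 to 0.657. The 8 fibroblast markers summed to 35697 and 34192 CPM in CF at day 100, against 6271 and 4452 CPM in WT, and their part in the SERPINH1 result was not tested.

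Between day 65 and day 120, both genotypes together, 4 of the 99 passed and all were higher at day 120, a share near the 4.04% of all genes that passed as higher. At an unadjusted p under 0.05 there were 31 of the 99, against 24.6% of all genes, and the median was 0.36 against -0.02 over all genes. They were DNAJA4, a J-domain partner of HSP70 (1.61 ± 0.29, edgeR adjusted p = 0.00667), FKBP4, an HSP90 co-chaperone (1.05 ± 0.22, 0.0138), AHSA1, which stimulates the ATP use of HSP90 (1.04 ± 0.29, 0.0477), and GRPEL1, the nucleotide exchange factor of mitochondrial HSP70 (0.75 ± 0.21, 0.0479). DNAJA4 passed in 28 of 29 other settings, FKBP4 in 23, AHSA1 in 9 and GRPEL1 in 9.

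Of the small heat shock proteins, CRYAB reached 304 CPM and HSPB8 189 CPM in CF day 80 replicate 1, the library with skeletal muscle markers. HSPA1A in that library was 1932 CPM, against 4350 CPM in its partner, and the log2 fold change of HSPA1A at day 80 was 3.74 without that library and 2.53 without its partner.

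Other stress-responsive genes stood high in the same CF birth libraries. Of 18 immediate early genes, transcribed within minutes of a stimulus, 9 were apart and higher in CF at birth and FOSL1 was lower, where 6.21% of all genes were higher and 6.24% lower. FOSL1 was near the floor of the counts, at 0 and 0.114 CPM in CF, against 0.466 and 1.83 CPM in WT. EGR1 measured 261 and 181 CPM in CF, against 15.1 and 14.5 CPM in WT. DUSP1, a phosphatase of MAP kinases, measured 843 and 793 CPM in CF, against 46.8 and 202 CPM in WT. WT day 147 replicate 2 was itself high for these genes, with a mean score over the 18 genes of 1.70 on the log2 scale, against 0.18 in its partner and 2.21 and 2.13 in CF.

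Of 14 genes that hypoxia raises, 10 were apart and higher in CF at birth and 0 lower, beside the same shares of all genes. At day 65 13 of the 14 had a positive log2 fold change, and 5 were apart and higher in CF and 0 lower (3.88% and 4.55% of all genes). At that age HSPA1A, HSPA6 and DNAJB1 were apart and lower in CF. Their log2 fold changes were -0.42, -0.36 and -0.32 without WT day 65 replicate 2, the library with thymus markers. At day 80 12 of the 14 were positive, 2 apart and higher in CF and 0 lower (4.84% and 4.63% of all genes). There HSPA1A, HSPA6 and DNAJB1 were apart and higher. At day 100 4 of the 14 were positive, 0 apart and higher and 2 lower (19.2% and 6.06% of all genes). All 10 heat shock genes were negative there. At day 120 9 of the 14 were positive and 0 apart (2.68% and 2.99%). At birth EGLN3, an oxygen-sensing prolyl hydroxylase, measured 175 and 168 CPM in CF, against 17.7 and 13.2 CPM in WT. SLC2A3, a glucose transporter, measured 146 and 176 CPM in CF at birth, against 26.2 and 16.3 CPM in WT. The mean score over the 14 genes was 1.14 and 1.13 in CF at birth, against -0.67 and -0.78 in WT, and between -0.63 and 0.43 in all libraries before birth. Between day 65 and day 120, both genotypes together, ADM (1.41 ± 0.28, edgeR adjusted p = 0.0107), EGLN3 (0.88 ± 0.20, 0.0178) and PGK1 (0.59 ± 0.17, 0.04997) rose and SLC2A3 fell (-1.89 ± 0.32, 0.00394). In 29 other settings SLC2A3 passed in 29, ADM in 26, EGLN3 in 23 and PGK1 in 4. The part of both lists in the values of the heat shock genes was not tested.

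Cell type markers at birth were called apart where the genotypes did not overlap, with no fold required, a rule that 15.6% of all genes met as higher in CF and 15.6% as lower. Of 10 epithelial markers 3 were apart and higher in CF and 0 lower, and they summed to 3749 and 3869 CPM in CF, against 2069 and 5720 CPM in WT. Of 12 markers of multiciliated cells 0 were apart. Of 8 fibroblast markers 0 were higher and 3 lower in CF, and they summed to 15192 and 10972 CPM in CF, against 26738 and 17421 CPM in WT. Of 13 skeletal muscle markers 0 were higher and 3 lower. Of 9 liver markers 3 were higher and 0 lower, and of 10 cartilage markers 2 were higher and 0 lower. Thyroid had 2 higher and 2 lower of 7, leukocytes 1 and 2 of 8, thymus 1 and 2 of 7, and nerve and Schwann cells 1 and 1 of 7. Endothelium had 1 higher and 0 lower of 8, and erythroid cells 1 and 0 of 5. Of 8 smooth muscle and 8 adipocyte markers 0 were apart. Several markers counted as apart lay under 1 CPM in all 4 birth libraries. Among them were all 3 of skeletal muscle (CKM, MYL1 and MYH8), TTR of liver and DNTT of thymus. The totals include markers with 0 counts in all 4 birth libraries: 2 of skeletal muscle, 3 of thymus, 1 of liver and 1 of nerve and Schwann cells. The part of these tissues and cell types in the values of the 10 genes was not tested.

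**Figure D5:**
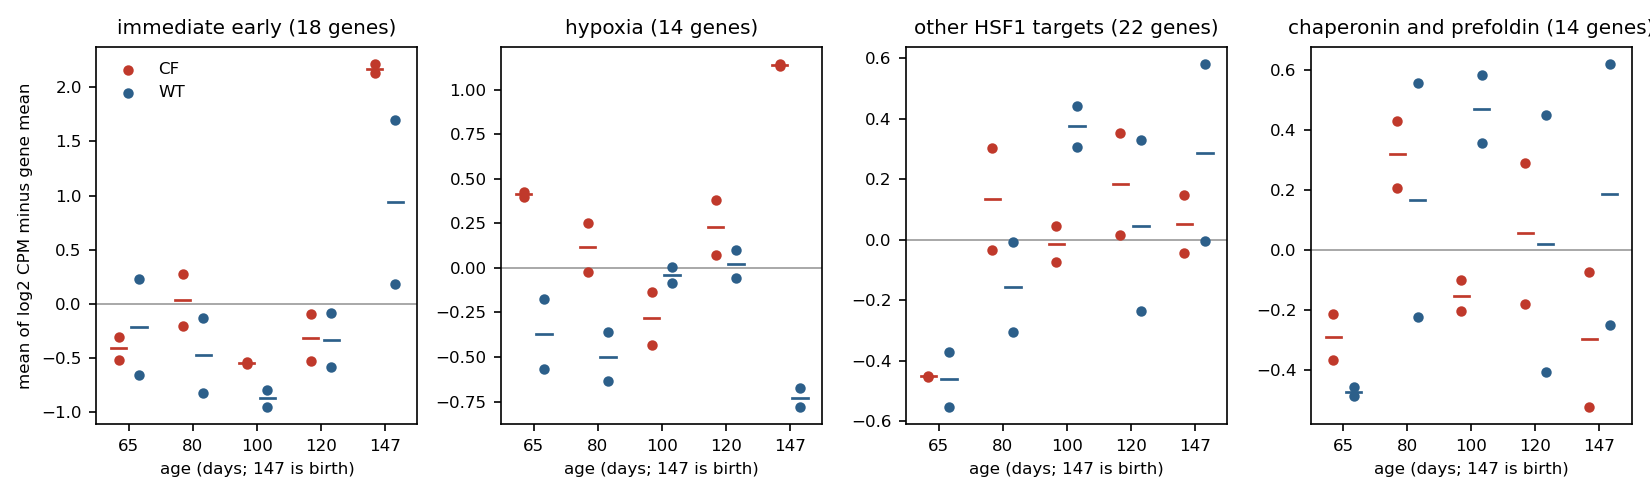
Mean score of each gene list per library, averaged over its genes as log2 CPM less each gene's own average, by age in days with CF left of WT. At birth the immediate early score is 2.21 and 2.13 in CF, against 0.18 and 1.70 in WT, and the hypoxia score is 1.14 and 1.13 in CF, against -0.67 and -0.78 in WT.

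Closest to the mean profile of HSPA1A, HSPA6, DNAJB1, HSPH1 and BAG3 over the 20 libraries, by the root mean square difference of centred log2 CPM, came DDIT4 (0.63), IMPA2 (0.71), BARX2 (0.74), RGS2 (0.75), TMEM88B (0.76) and MAPRE3 (0.76). The profile itself had an SD of 1.11, and the 5 genes that make it up lay at 0.29 (DNAJB1), 0.51 (HSPA1A), 0.75 (HSPH1), 0.83 (BAG3) and 1.14 (HSPA6) from it. BAG3 and HSPA6 were thus farther from the profile than all 6 genes named. DDIT4, which is also on the hypoxia list above, measured 342 and 343 CPM in CF at birth, against 85.7 and 98.1 CPM in WT. RGS2 measured 140 and 146 CPM in CF at birth, against 13.5 and 38.4 CPM in WT.

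Those most like HSPA2 were TEX30 (0.27), KHDRBS3 (0.33), NEK2 (0.37), RARB (0.38), POC1A (0.39) and RELB (0.43), with an SD of 0.68 for HSPA2. TEX30 measured 4.41 and 4.20 CPM in CF at birth, against 13.3 and 14.1 CPM in WT. NEK2, a centrosome kinase of dividing cells, measured 6.19 and 7.22 CPM in CF at birth, against 33.3 and 23.0 CPM in WT. The likeness is a description over libraries that share ages and genotypes.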

How the data were processed

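Total RNA of frozen sheep trachea was sequenced in 20 libraries, per the labels' protocols. STAR 2.6 for alignment and featureCounts 1.6.3 (Subread) for counting are named in the submitters' processing notes. The authors deposited raw counts by gene, with positions and exon lengths, per the file headers. Genome build, annotation release and strand setting: not given in the sources used here. Strand matters for DNAJB1, HSPA8 and HSF1, whose exons share 118, 435 and 24 bases with genes of the opposite strand.

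Groups came from the titles. edgeR 4.0.16 in R 4.3.3 (filterByExpr, TMM, robust glmQLFit and glmQLFTest) was fitted with 1 coefficient per genotype and age over all 20 libraries, 20097 genes and Benjamini-Hochberg adjustment over all of them, threshold 0.05, and tested on simulated data. SE is the log2 fold change over the root of F. CPM use TMM library sizes, and log2 CPM a prior count of 2. DESeq2 1.42.0, other scalings, no filter, the replicate block, summed pairs of a shared identifier and left-out libraries were alternatives. Replicates of a group differed by a chi-square per gene of 37.6 to 1662, so none was a copy.

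The 10 genes and all lists were chosen with earlier results of these data known. Named besides the 10 are up to 4 genes of a list that passed, up to 4 with the largest change at birth among those apart by over 2-fold, fixed key genes, and the 6 of nearest profile. Identifiers were given symbols from the RefSeq table of assembly ARS-UI_Ramb_v3.0, 573 of 8432. HSPA1B and HSPE1 were not analysed here.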

Additional observations from a re-analysis of the deposited data

How the results depend on the processing

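The replicate numbers did not pair the libraries: same-numbered deviations correlated between -0.59 and 0.73, with a median of 0.02 over 45 pairs of groups. With the replicate block, 3 genes passed between day 65 and day 120 over both genotypes, as without it, but HSPA1A (adjusted p = 0.0322) stood in place of HSPD1 (0.0609), and 0 passed in every other test before birth. Under DESeq2 7 passed between day 65 and day 120 over both genotypes (16.7% of all genes), 4 in CF (4.48%) and 1 in WT (9.13%). DESeq2 also called 2 for CF against WT at day 80 (3.52%) and 2 for the genotype by age test (2.96%). Without the 4 libraries holding other tissue 1 passed between day 65 and day 120 over both genotypes, and with the slope on gene length as a covariate 2 passed in CF, HSPH1 (adjusted p = 0.0226) and BAG3 (0.0445). Leaving out each library gave 0 to 5 over both genotypes, lowest when CF day 65 replicate 2 was dropped and highest when WT day 80 replicate 2 was, 1 without WT day 65 replicate 1 or CF day 65 replicate 1, and 0 to 1 in CF. The 4 genes apart at birth were 4 to 5 then, HSPB1 joining without WT day 147 replicate 2.

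Of 62 gene comparisons whose log2 fold change exceeded its SE, directions held in 539 of 540 values under other settings, the exception being HSPB1 at day 80 (-0.14 without the 4 libraries), and in 1233 of 1240 with a library left out. In the 38 within 1 SE they held in 303 of 330 and 703 of 760. Without CF day 120 replicate 2, the log2 fold changes at day 120 turned for HSPA8 (range -0.089 to 1.15), HSPH1 (-0.21 to 1.44) and BAG3 (-0.093 to 1.01), as did HSPA8 from day 65 to day 120 in CF (-0.0098 to 1.25) and the difference of developments of HSPH1 (-0.011 to 1.62) and BAG3 (-0.14 to 0.94). DNAJB1 in WT turned without WT day 120 replicate 2 (-0.031 to 1.32). Scaling by total counts alone moved the median of all genes by -0.22 between day 65 and day 120 over both genotypes and by 0.20 for CF against WT at day 100. The cause of these changes was not tested.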
